A study of Drosophila melanogaster with 3 samples.

Results

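The Enhancer of split complex, E(spl)-C, is the group of Notch-responsive genes on arm 3R of Drosophila melanogaster, and the results describe how Yorkie (Yki) bound across it in S2 cells. The stretch examined runs from 21815000 to 21880000 on 3R of the dm3 build, 65 kb in all, and every listed Yki peak with its midpoint inside was taken. This gave 4 of the 3990 peaks of the whole list and of the 1008 peaks on 3R. The stretch was defined by position and not by any measured value.

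The study measured Yki binding by chromatin immunoprecipitation and sequencing (ChIP-seq). There were 2 ChIP libraries made with an antibody against Yki from formaldehyde-fixed S2 cells, and 1 input library from the same line made without antibody. S2 is an established line of embryonic origin, and the labels give no genotype, transgene or treatment for either group. The labels of the libraries disagree: the free-text descriptions name embryo material and, for the ChIP libraries, GAF in place of Yki, against the S2 and Yki entries of the title, source, antibody and cell line fields. The titles were followed. The deposited values are 1 list of intervals and 1 density track, and the track's header joins 2 library codes with 1 input code. No value belongs to a single library, so the spread between the 2 ChIP libraries could not be measured and no result below carries a test.

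Yki is the transcriptional coactivator through which the Hippo pathway controls tissue growth; it has no DNA-binding domain and reaches DNA through partners such as Scalloped. The E(spl) genes are classic direct targets of Notch signalling, switched on by Suppressor of Hairless when Notch is cleaved. Of the 13 genes of the complex that were looked up, 7 encode basic helix-loop-helix (bHLH) repressors: E(spl)mdelta-HLH, E(spl)mgamma-HLH, E(spl)mbeta-HLH, E(spl)m3-HLH, E(spl)m5-HLH, E(spl)m7-HLH and E(spl)m8-HLH. These proteins hold back proneural genes and recruit the corepressor Groucho, which gro encodes. A further 4, E(spl)malpha-BFM, E(spl)m2-BFM, E(spl)m4-BFM and E(spl)m6-BFM, belong to the Bearded family, small proteins that dampen Delta signalling. E(spl)m1, listed as Kaz-m1, encodes a protein with a Kazal-type protease inhibitor domain.

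In the RefSeq table of the Release 6 assembly these 13 genes follow each other on 3R with no other protein-coding gene between them, from E(spl)mdelta-HLH at one end to gro at the other. The order is E(spl)mdelta-HLH, E(spl)mgamma-HLH, E(spl)mbeta-HLH, E(spl)malpha-BFM, E(spl)m1, E(spl)m2-BFM, E(spl)m3-HLH, E(spl)m4-BFM, E(spl)m5-HLH, E(spl)m6-BFM, E(spl)m7-HLH, E(spl)m8-HLH and gro. That assembly is not the build of the Yki files. Positions below are therefore those of dm3, no peak is given to a gene, exon or promoter, and no sequence under a peak is shown. That the stretch holds the complex rests on how it was defined and was not checked against a dm3 annotation. Below, the complex is a short name for this 65 kb stretch. Where its peaks lie relative to the 13 genes was not determined.

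Density is given in tag equivalents. Where the track returned to 0 on both sides of a short bump, the most frequent bump above 0 had a sum of 4.98 over samples 100 bp apart, a highest value of 1 and an SD of 196 bp (1153 of 3007 bumps). The most frequent bump below 0 reached 0.36 below 0 (892 of 1633 bumps). A lone ChIP tag was accordingly read as a bump of height 1 and a lone input tag as one of 0.36 below 0. For such bumps spread evenly or gathered at the sample, counting error gives a density h an SD of at least sqrt(h / sqrt(2)), before any noise from input. In a dip between summits the SD can be lower. Reads had no molecular identifiers and can be copies of one molecule, so these SDs cover counting error only.

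Yki binding within the stretch lay at 3 places in the deposited list, 1 near the middle of the stretch and 2 beyond it. The first place was a pair of peaks, the second held the highest peak and widest interval, and the third was a single peak near the end. The first peak, at 21846615 to 21847113 on 3R, had its midpoint 31.9 kb into the stretch, was 499 bp wide and reached a height of 209.5 (counting SD at least 12.2). The second, at 21847217 to 21847678, lay 32.4 kb in, was 462 bp wide and reached 220.2 (counting SD at least 12.5). These 2 peaks were much alike in height, and a gap of 103 bp separated them.

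The third peak, at 21867433 to 21868704, lay 53.1 kb in, spanned 1272 bp and reached 432 (counting SD at least 17.5). The fourth, at 21877903 to 21878575, lay 63.2 kb in, was 673 bp wide and reached 246 (counting SD at least 13.2). The third peak was the tallest of the 4, and it exceeded the fourth by 186, where the counting SD of the difference is at least 21.9. The other 3 peaks stood closer together. The fourth was 36.5 above the first (counting SD of the difference at least 17.9) and 25.8 above the second (at least 18.2). The second was 10.6 above the first. A counting SD of 17.4 for that difference treats the 2 summits as independent. They are 500 bp apart and share some tags after smoothing, so 17.4 is not a lower bound.

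**Figure D1:**
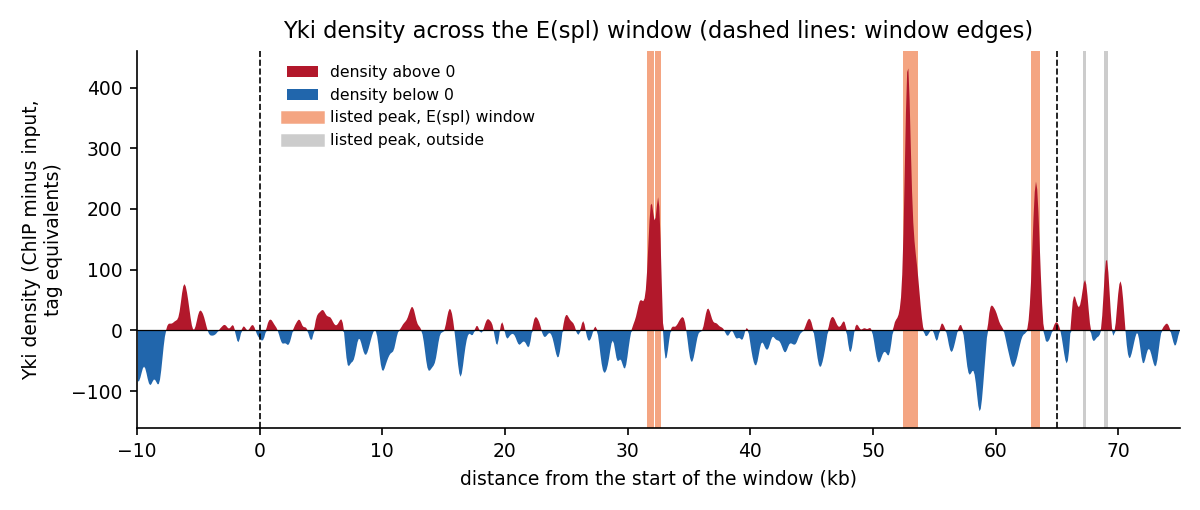
Yki density (vertical axis, ChIP minus input in tag equivalents) against the distance from the start of the 65 kb E(spl) window (horizontal axis, kb), with 10 kb added on each side; red is density above 0, blue below 0, and shaded bands are listed peaks. The 4 peaks of the window lie at 31.9, 32.4, 53.1 and 63.2 kb, the deepest trough falls to -132 between the last 2 of them, and 2 lower peaks lie just past the dashed end of the window.

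Summed over their intervals, the first 3 peaks held 187, 194 and 641 net ChIP tag equivalents, and the fourth held 275. Together the 4 peaks held 1297, while the whole stretch, troughs included, held 215. The density outside peaks was thus below 0 on balance, with a mean of -8.70, and most of the ChIP excess of the stretch sat in its 4 peaks. Of all density above 0 in the stretch, 58.4% lay inside listed peaks.

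The pair of peaks shared 1 block of raised density. Their summits, the highest samples, were 500 bp apart, and the 1 sample in the gap between the intervals had a density of 182. That is 27.2 below the lower of the 2 summits, where the counting SD is at least 12.2 for the summit. The same formula gives 11.4 for the gap, which is not a lower bound in a dip. The track was smoothed, so samples this close share tags and the dip is shallower than in the reads. Measured at 50% of the first summit's height, the block was 1147 bp wide, against 468 bp computed for a single smoothed tag. Left of the first summit the density fell to 68.3 at 500 bp and then stayed near 50, with an unlisted shoulder of 51.0 at 900 bp. Right of the second summit it fell faster, to -29.2 at 500 bp.

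The third peak was lopsided in its lower part. Its width at 50% of its height was 668 bp, divided almost evenly into 342 bp left of the summit and 326 bp right of it. Farther out the sides differed: at 500 bp the density was 147.8 on the right and 93.1 on the left, and at 800 bp it was 88.4 on the right and 26.7 on the left. No second summit appeared on the right-hand shoulder. The fourth peak was nearly symmetrical, 661 bp wide at 50% of its height with 321 bp on the left and 340.2 bp on the right, and at 500 bp from its summit the density was 45.2 on the right and 43.3 on the left. Both single peaks were wider than a lone smoothed tag, and both were narrower at that level than most peaks of the arm: 26.6% of the other 3R peaks were narrower than the third peak and 26.2% narrower than the fourth. The level was 50% of the height above 0, with no local background removed. Raised flanks or close neighbours widen a peak in this measure. The flanks 2 to 5 kb away had a mean of -21.9 and -5.32 for these 2 peaks and a median of 13.9 over 3R peaks.

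**Figure D2:**
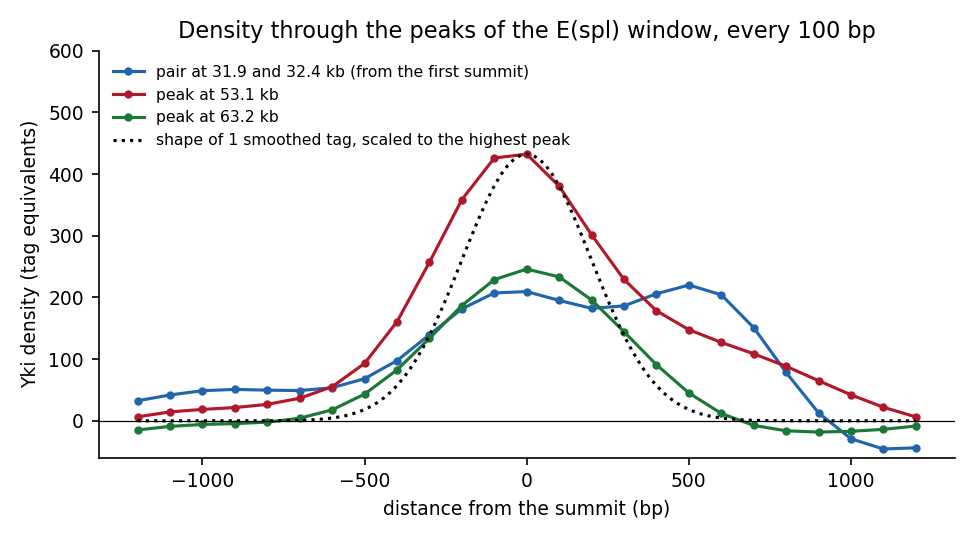
Yki density (vertical axis, tag equivalents) at samples 100 bp apart against the distance from the summit (horizontal axis, bp) for the pair of peaks, the third peak and the fourth peak; the dotted line is the shape of 1 smoothed tag scaled to the highest peak. The pair forms a block with 2 summits 500 bp apart, the third peak carries a shoulder on its right, and the fourth is nearly symmetrical.

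Each peak stood well above its flanks. The mean density inside the 4 peaks, in their order along the arm, was 187, 193.6, 246 and 195.6. In the flanks 2 to 5 kb away it was -15.1, -19.4, -21.9 and -5.32. Farther out, 5 to 10 kb away, it was -7.82 and -9.11 for the first 2 peaks, and above 0 for the third and the fourth, at 3.91 and 12.6. With the nearer flanks, the median difference of peak from flank was 207 in the stretch and 110.5 over all 3R peaks, whose flanks had a median of 13.9. In this measure 78.9% to 88.0% of the other 3R peaks stood less far above their flanks than the 4 peaks of the complex. List and track come from the same libraries, so this describes the peaks and does not test them.

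Set among the peaks of the arm, those of the complex were in the upper part by height but not at its top. The median height was 233 for the 4 peaks and 135.2 for the other 1004. The third peak ranked 105 of 1008, and 89.6% of the other 3R peaks were lower. The fourth, second and first ranked 246, 283 and 306, with 75.7%, 72.1% and 69.9% of the others lower. All 4 reached 200, as did 31.6% of the other 3R peaks, a height chosen after the values were seen. All 4 were also at least as wide as the arm's median peak, and among other 3R peaks of at least the median width 49.1% were lower than the median height of the 4.

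By the width of the listed interval the third peak stood out more than the rest. At 1272 bp it was wider than 92.0% of the other 3R peaks. The fourth was wider than 69.9%, while the first and second, at 499 and 462 bp, were close to the arm's median of 449 bp.

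**Figure D3:**
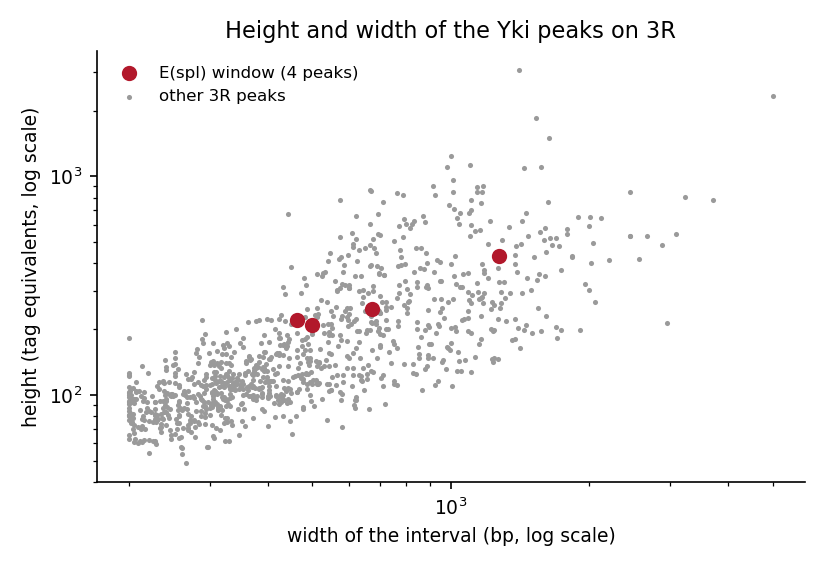
Height (vertical axis, tag equivalents, log scale) against width of the interval (horizontal axis, bp, log scale) for the 4 peaks of the E(spl) window in red and the other 1004 peaks of 3R in grey. The third peak, 1272 bp wide and 432 high, lies toward the upper right, the fourth, at 673 bp, lies between it and the first 2, which are close to the median width of 449 bp.

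The rest of the stretch held little density that came near a listed peak. The 31.6 kb before the first peak had no peak, and its mean density was -7.89, against 10.7 over the 33.4 kb from the first peak to the end. In steps of 5 kb, 10 of 13 bins held no peak, and the mean was below 0 in 9 of these 10, down to -27.4. Outside the peaks and their slopes, 7 local maxima exceeded 25. The highest was the shoulder of 51.0 beside the first peak, and the other 6 ran from 26.2 to 42.0. The lowest peak listed on 3R had a height of 48.9, so none of these 6 reached the height of any listed peak of the arm.

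Several parts of the stretch fell well below 0, where input outweighed ChIP. At a depth of -50 or lower there were 12 separate runs of samples, spread over the stretch from 7.24 to 61.3 kb. The deepest, at 21872640 to 21874040, fell to -132 between the third peak and the fourth, 4.60 kb from the nearest midpoint, and was the only run to pass -100. A trough this deep was not unusual for the arm, since 40.5% of the other windows of 65 kb fell as low. The number of runs at -50 was higher than in most windows: the other windows had a median of 7, and 59 of 427 had more than 12. At -75 the complex had 2 runs, the other windows had a median of 3, and 233 of them had more. At -100 it had 1 run, the median was 1, and 188 had more. Of these levels, the surplus was thus seen at -50 only.

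The complex lay beside a long stretch without listed peaks. Before the first peak, the nearest listed peak was at 21707072 to 21707308, with a height of 93.9, which leaves a gap of 139.3 kb without a peak. Only 43 of the 1007 gaps between neighbouring 3R peaks were longer, and the median gap was 6799 bp. The last 31.6 kb of this gap lie inside the stretch. On the other side, 2 peaks followed closely past the end: one at 21882101 to 21882338, with a height of 83.9, began 2.10 kb past it, and one at 21883844 to 21884151, with a height of 117, began 3.84 kb past it. Both were lower and narrower than the 4 inside. With them the group held 6 peaks over 37.5 kb, followed by a gap of 78.8 kb. Both gaps are between listed peaks and were not free of raised density. Unlisted local maxima of 77.1 and 81.7 lay at -6.16 and 70.1 kb from the start of the stretch. Both were above the lowest height listed on 3R, 48.9.

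Compared with windows of the same size laid end to end over 3R, the complex had more peaks than most. It held 4 peaks (exact 95% Poisson interval 1.09 to 10.2, counting error only), and the other 427 windows had a median of 2 and a mean of 2.35. The mean of the other windows lies inside that interval. The interval treats peaks as independent, and the first 2 peaks share 1 block of raised density, so it is not a test of the count. At least 4 peaks were found in 22.0% of the other windows, with 71 holding more than 4 and 23 holding 4. Peaks covered 4.62% of the density samples of the complex and 2.21% of those of the whole arm, and 62 of 427 windows had a larger share.

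The complex differed more from other windows in how its density was divided than in how much there was. Its mean density of 1.65 was near the middle of the arm, with 160 of 427 windows higher. The mean outside peaks, -8.70, was below the median of the other windows, -4.87. The share of density above 0 that lay in peaks was 58.4% in the complex and had a median of 15.2% in the other windows, and 13 of 427 had a larger share. Of the other windows, 139 (32.6%) held no listed peak and so had a share of 0 by definition, which lowers that median. In the 23 other windows that also held 4 peaks, the share ran from 12.8% to 52.8%. All 4 peaks of the complex were above the median height of the arm. At least 4 peaks at or above that median were found in 8.20% of the other windows.

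**Figure D4:**
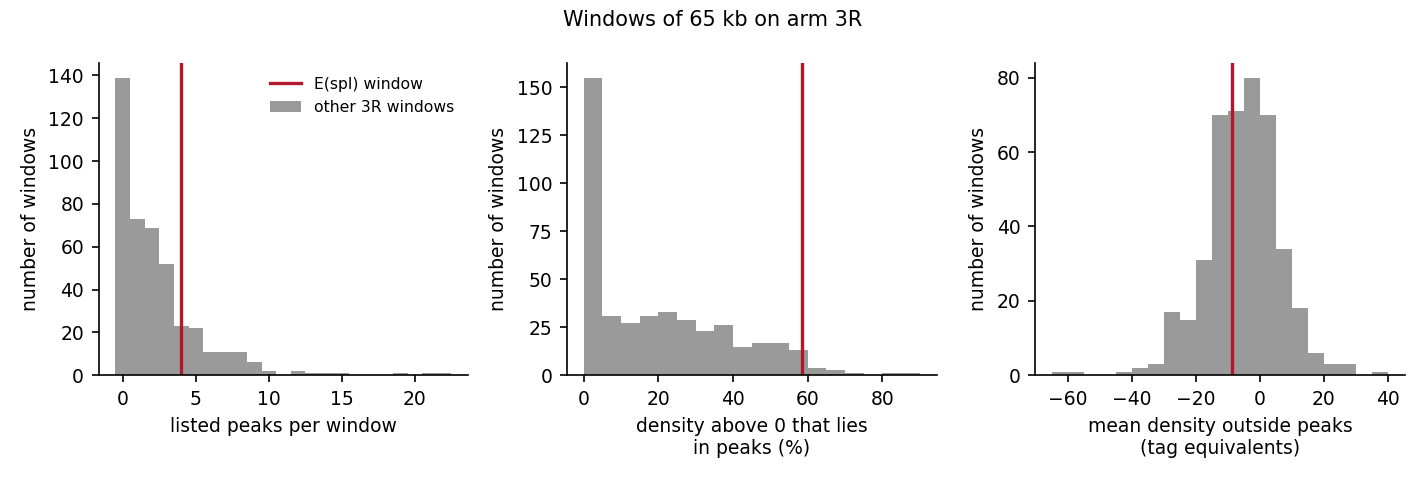
Number of windows of 65 kb on 3R (vertical axes) by listed peaks per window, by the share of density above 0 that lies in peaks (%) and by mean density outside peaks (tag equivalents); red lines mark the E(spl) window and grey bars the other 427 windows. The complex has 4 peaks, 58.4% of its density above 0 in peaks and a mean of -8.70 outside them, so it lies far to the right in the middle panel only. In that panel the 139 windows without a listed peak stand at 0.

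Near the complex, peaks were sparser. The 5 windows on each side held 0 to 3 peaks, and 3 of these 10 held none, among them the window just before the complex; the one just after held 2. Only 1 of the 10 had a peak taller than the third peak of the complex, with a height of 704. The complex had 12 runs at -50 or lower, against 1 to 7 in each of the neighbouring windows. It did not stand apart at -75, where it had 2 runs and the window just before it had 4. At -100 it had 1 run, and the window from 22075000 to 22140000 had 2. The mean density outside peaks of the complex, -8.70, was below that of the neighbouring windows, which ran from -5.46 to 11.6. The runs at -50 lie outside listed peaks, so their samples are part of that mean and lower it. How much of the difference from the neighbouring windows they make up was not tested.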

How the data were processed

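Yki ChIP-seq was analysed in S2 cells, with 2 ChIP libraries and 1 input library, grouped by their titles. CASAVA 1.7.0, BWA, Bowtie and build dm3 are named in the submitters' processing notes; what each tool did, and which caller gave the peaks, is not given in the sources used here. A deposited file lists intervals without scores, and the authors' other file gives a density score every 100 bp that is smoothed and background-subtracted, per the file headers. The header's library codes match no label and were taken as the 3 libraries, pooled. Depth per library is unknown.

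Interval starts were raised by 1. Samples of the density were assigned to the interval that holds their position; height was the highest of them. Windows were laid out from the E(spl) window in both directions over 3R. Net tags are sums of density divided by 4.98. Comparisons are descriptions by rank; no test was run, since no library has its own value. All peaks of the window are named. Members, lists and comparisons were chosen with earlier results of these data known. The planned motif search needed promoter sequences and was not run. Python 3.11.15, numpy 2.4.6, pandas 2.3.3, scipy 1.17.1 and matplotlib 3.10.9 were used; functions were tested on simulated data. Alternatives are given in the closing section.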

Additional observations from a re-analysis of the deposited data

How the results depend on the processing

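The number of peaks stayed between 3 and 6: 3 with neighbours joined across 500 bp, 3 with the window shortened by 5 kb on each side, and 6 with it widened by 10 kb, the gain being the 2 lower peaks past its end. The share of other windows with at least as many peaks was 22.0%, 25.8% with windows laid from the start of the arm and 23.3% with windows moved in steps of 5 kb. It was 8.20% with only peaks at or above the 3R median height and 30.7% with joined peaks. For mean density the share of windows at least as high was 37.5%, but 62.8% outside peaks and 67.0% by the median, so the complex moved from above the middle of the windows to below it. The share of other 3R peaks lower than the median height of the 4 was 74.3%, and 49.1% against peaks of at least median width. Peak minus flank was 245.5 with highest values. Runs below 0 numbered 12 at -50, 2 at -75 and 1 at -100, and the other windows had medians of 7, 3 and 1. Without the peak samples the mean density of the complex went from 1.65 to -8.70, and the median of the other windows from -2.08 to -4.87. What else lies behind these shifts was not tested. No paired analysis was possible because neither file separates the libraries, and for the same reason no replicate could be left out. With no read totals, the smallest detectable density cannot be stated.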
